A study of Physcomitrium patens with 8 samples.

Results

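In the moss Physcomitrium patens, 65 genes were at least 4-fold lower after mannitol in the PpanrKO line, while in wild type their differences under 3 treatments stayed within set limits. These 65 are 0.328% of the 19821 genes with enough reads to be compared, and 11% of the 592 genes that were at least 4-fold lower with mannitol in PpanrKO. They were chosen by measured values: each had a difference of -2 or less between the mannitol and the control library of PpanrKO, and differences above -1 and below 2 between each treated library and the control library of wild type. All differences are on the scale log2(normalized value + 10), on which 1 unit is about 2-fold for well-covered genes and less than the true change for genes near the added 10. Counts of genes at least 2-fold or 4-fold apart mean 1 or 2 units on this scale, so a gene inside the WT limit of -1 can be more than 2-fold lower in its values. Genes entered with a mean of at least 20 over the 8 libraries.

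The 8 libraries came from chloronemata of the Gransden strain, the green filaments of a young moss culture, 6 days after subculture on agar. Wild type (WT) and PpanrKO (KO) were each left untreated, held for 1 h with abscisic acid (ABA, 1e-05 M), held for 1 h with mannitol (10% w/v), or dried over saturated sodium chloride until 70% of the fresh weight had gone. Each of these 8 groups is 1 library made from RNA pooled from 3 biological replicates. A difference between 2 libraries therefore has no replicate check, and how many KO clones were used is not stated in the labels.

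ABA is the plant hormone of water shortage. Its receptors block protein phosphatases, which frees SnRK2 kinases to switch on genes that protect dehydrating cells. Mannitol is a sugar alcohol that draws water out of cells by osmosis, and in mosses osmotic stress and ABA act on overlapping sets of genes. The gene removed in KO, ANR (ABSCISIC ACID NON-RESPONSIVE), encodes a Raf-like protein kinase that acts in this pathway. The deposited IDs are not paired with gene names, and none of them matched the RefSeq gene table at hand, so no role can be given for any of the 65 genes, ANR itself was not looked up as a check of the labels, and the tissue was not checked with marker genes.

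Summed over the genes, the reads recovered from the deposited values ran from 22516957 to 38767634 per library. The deposited values are read counts multiplied by 1 factor per library, and that factor ran from 0.704 (KO mannitol) to 1.62 (WT ABA), with 1.10 for KO control. The choice of factor touches every result here. With equal totals per library the median difference of all genes between KO mannitol and KO control moved from 0.13 to 0.63. The 65 genes then lay between -4.42 and -1.48 with a median of -2.07, and 35 of them still reached -2. With median-of-ratios scaling all 65 still reached -2, but 19 left the limits set for WT, as 19 also did with equal totals. In these bulk samples fewer cells of a type and less RNA per cell cannot be told apart.

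The median level of the 65 genes was lower in KO mannitol than in any other library. Their median normalized value there was 149, with a range from 2.11 to 3069.8. In KO control the median was 1025 (94.8 to 12529), and KO mannitol was the lowest of the 8 libraries for 58 of the 65 genes. The choice of genes favours this order.

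WT medians were 678 untreated, 1160 with ABA, 684 under mannitol and 1100.0 when dried. The KO medians with ABA, 460.0, and after dehydration, 544, lay between those of KO mannitol and KO control. None of the 65 genes was without reads in any library, and the lowest read count was 3. The highest library was WT ABA for 25 genes and KO control for another 25. The same was not counted over all genes. The factor of each library affects these counts (1.62 in WT ABA, 1.10 in KO control), and a high KO control favours entry under the rule.

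**Figure D1:**
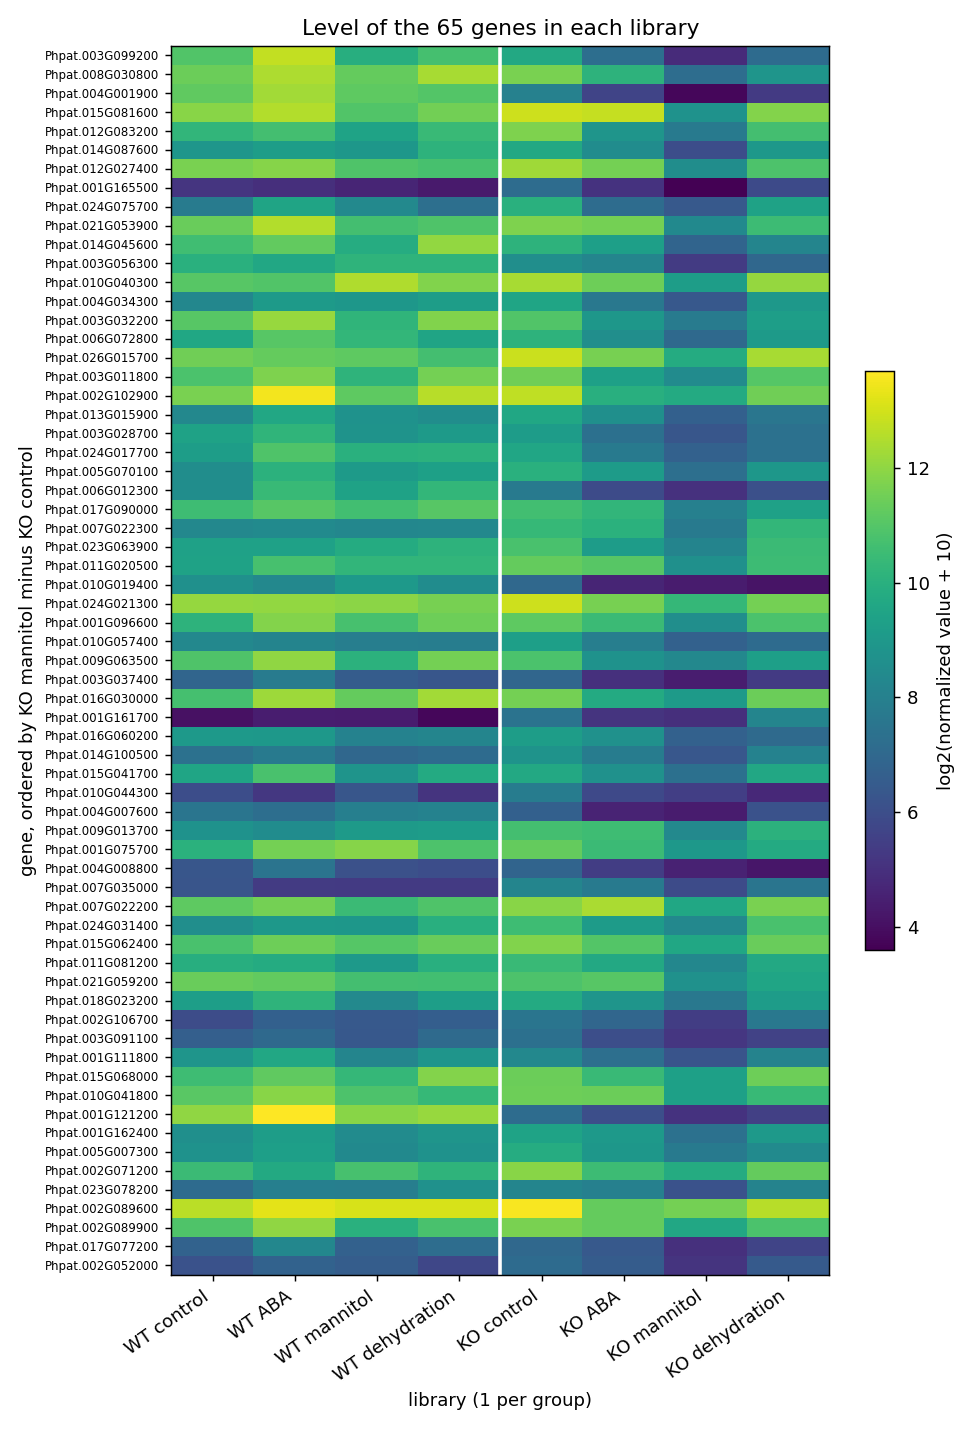
Colour gives log2(normalized value + 10) of each of the 65 genes (rows, ordered by the KO mannitol minus KO control difference) in each of the 8 libraries (columns, WT left of the white line and KO right of it). The KO mannitol column is the lowest of the 8 for 58 genes.

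By construction every gene was lower with mannitol in KO, against 2.99% of all genes that were at least 4-fold lower. The median difference was -2.54, with quartiles of -3.07 and -2.18, where all genes had a median of 0.13. There were 18 genes under -3 and 4 under -4. Counted on reads without the added 10, the 95% interval of the fold, which covers counting error only, lay wholly at or above 4 for 53 genes and reached under 4 for 12. It reached under 2 for none of the 65.

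The lowest difference belonged to Phpat.003G099200 (build V3.0, chromosome 3, 17292007 to 17294643, minus strand). Its normalized values in WT were 1958 untreated, 6980.5 with ABA, 975 under mannitol and 1678 when dried. In KO it was 824, 141, 19.0 and 128 in the same order. All 4 KO values lay below all 4 WT values, and KO mannitol was 43.3-fold lower than KO control (29.5 to 66.2, 95% counting interval), a difference of -4.84. This gene sits at the edge of the rule, since WT mannitol was also lower than WT control, by a difference of -0.999.

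Phpat.008G030800 (chromosome 8, 4973620 to 4974361, minus strand) was next, with a difference of -4.45 which is 23.4-fold lower (20.3 to 27.2). In WT it stood at 2741 untreated, 5586 with ABA, 2522 under mannitol and 5266 when dried. In KO it was 3253, 1123, 139 and 462. The control libraries of the genotypes were close to each other for this gene, and the 3 treated KO libraries lay below every WT library.

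The threshold cuts through a continuous range: 30 of the 65 genes lay between -2.5 and -2, and 132 further genes that met the WT terms lay between -2 and -1.5. Just inside were Phpat.002G052000 (chromosome 2, 7995616 to 7996940, plus strand) at -2.004 and Phpat.017G077200 (chromosome 17, 13607384 to 13609361, minus strand) at -2.01. Just outside were Phpat.016G076800 (chromosome 16, 11465518 to 11468150, minus strand) and Phpat.011G063400 (chromosome 11, 11589603 to 11592550, plus strand), both at -1.99.

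Phpat.002G052000 went from 129 in KO control to 24.7 with mannitol, with 83.1 under ABA and 78.6 after dehydration, and ranged from 44.3 to 98.5 in WT. Phpat.017G077200 had 118, 75.6, 21.8 and 41.2 in KO control, ABA, mannitol and dehydration, and 98.4, 300.5, 97.2 and 138 in WT. Phpat.016G076800, outside, had 1953, 772, 483 and 1326 in KO and 1877, 5947, 2691 and 3257 in WT. Phpat.011G063400, outside as well, had 1322, 1006, 326 and 960.2 in KO and 510.2, 696, 571 and 587 in WT. All 4 genes had their lowest KO value with mannitol.

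Of the 592 genes at least 4-fold lower with mannitol in KO, the WT terms left out 527. In 475 of them at least 1 WT treatment reached -1 or less, and in 229 all 3 did. WT mannitol was the only treatment at -1 or less in 82 genes, dehydration in 25 and ABA in 5. Another 52 genes went only because a WT treatment reached 2 or more. Beside the 65 genes, the other 527 had a median difference of -2.15 with mannitol in WT and -2.72 in KO.

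Within the limits of the rule, WT was not flat. Between WT mannitol and WT control, 20 of the 65 genes lay from -1 to -0.5, 17 from -0.5 to 0, 16 from 0 to 0.5, 10 from 0.5 to 1 and 2 above 1. The median of -0.12 was below that of all genes, 0.47. With ABA the WT median was 0.66, and 22 genes were at least 2-fold higher (16.7% of all genes). After dehydration the median was 0.15, and 8 genes were at least 2-fold higher (10.3% of all genes). The rule holds these values between -1 and 2, so the counts are a description.

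Against 21.2% of all genes, 2 of the 65 were at least 2-fold higher with mannitol in WT, and both are named here after their values were seen. Phpat.001G075700 (chromosome 1, 15356359 to 15361309, minus strand) went from 1041 to 3734 in WT and from 2537 to 498 in KO. Phpat.010G040300 (chromosome 10, 6915542 to 6917636, plus strand) went from 2152 to 5712 in WT and from 5355 to 587 in KO. The genotypes moved in opposite directions for both genes, with differences of 1.83 and 1.40 in WT and -2.33 and -3.17 in KO. With 1 library per group that contrast was not tested.

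The KO libraries under ABA and after dehydration played no part in the choice of genes, although the KO control they are read against did. With ABA the 65 genes had a median difference of -1.04 from KO control, against 0.23 for all genes. At least 2-fold lower were 33 of the 65 (50.8%), against 4.97% of all genes and 1.51% of the 13320 genes that met the WT terms. After dehydration the median was -1.03, against -0.25 for all genes, and 34 genes (52.3%) were at least 2-fold lower, against 10.8% of all genes and 4.37% of those that met the WT terms. No gene of the 65 was 2-fold higher in either. Both comparisons and the rule share KO control, so genes picked for a high value there lean towards lower values in every other KO library.

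**Figure D2:**
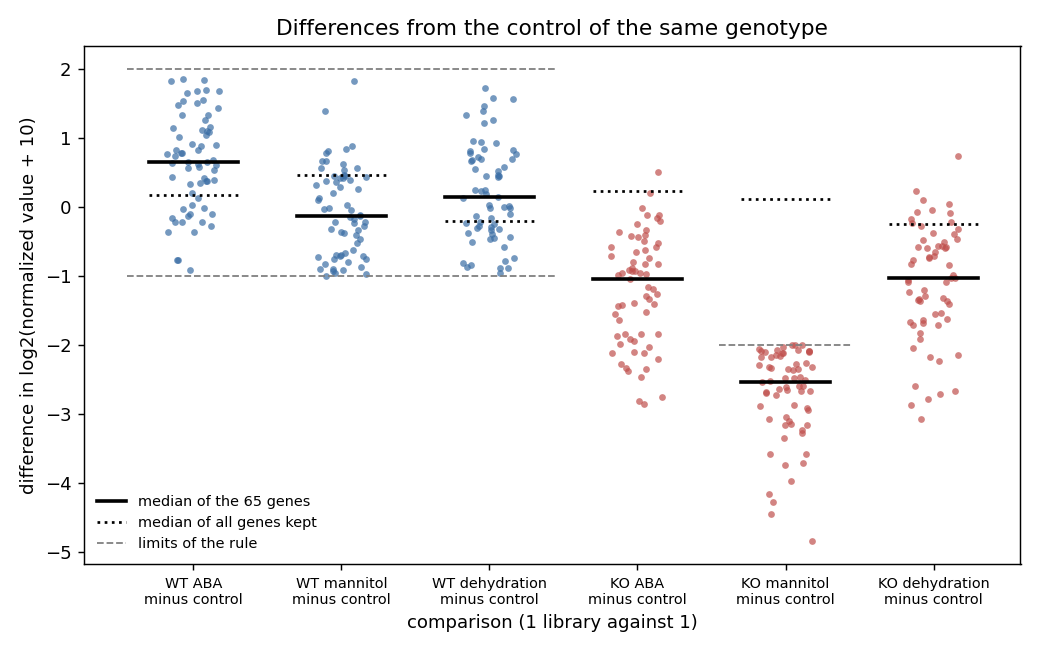
Each point is 1 of the 65 genes, and the vertical axis is the treated library minus the control of the same genotype in log2(normalized value + 10). Solid bars are medians of the 65 genes, dotted bars medians of all 19821 genes, and dashed lines the limits of the rule. The KO medians with ABA (-1.04) and after dehydration (-1.03) lie between the KO mannitol median (-2.54) and the WT medians.

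Read together, 20 of the 65 genes were at least 2-fold lower under both ABA and dehydration in KO, 13 under ABA and not dehydration, 14 under dehydration and not ABA, and 18 under neither. These counts move with the scaling: of the same 65 genes, 44 were 2-fold lower with ABA and 27 after dehydration under median-of-ratios scaling, and 33 and 20 with equal totals. The shares of all genes were 7.13% and 6.76% under median-of-ratios scaling, and 4.95% and 4.80% with equal totals. KO mannitol was below both other treated KO libraries for 61 genes. It was at least 2-fold below KO ABA for 48 genes (7.2% of all genes) and at least 2-fold below KO dehydration for 51 (5.44% of all genes), and below both by that much for 40. The rule picked these genes for a low KO mannitol value and so favours these counts, which are a description.

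Phpat.012G083200 (chromosome 12, 15480087 to 15487258, minus strand) had the lowest difference with ABA in KO, -2.85. Its KO values were 3384 untreated, 460.0 with ABA, 205 under mannitol and 1653 when dried, beside 1191, 1624, 684 and 1365 in WT. Phpat.024G075700 (chromosome 24, 13516372 to 13518498, plus strand) was close, at -2.82, with 1012, 135, 75.4 and 679 in KO and 210.3, 704, 315 and 145 in WT. In both genes ABA and mannitol left KO low while the dried KO library lay above the dried WT library.

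At the other end stood Phpat.007G022200 (chromosome 7, 3188967 to 3190633, plus strand) and Phpat.021G059200 (chromosome 21, 10471237 to 10472836, minus strand), the 2 genes of the 65 with a higher value under ABA than in KO control. Phpat.007G022200 had 3808, 5420.1, 781 and 3267 in KO control, ABA, mannitol and dehydration, and 2334, 3034, 1417 and 1924 in WT. Phpat.021G059200 had 1856, 2142, 406 and 726 in KO and 2699, 2462, 1643 and 1574 in WT. KO mannitol was the lowest library for both, 4.88-fold (4.55 to 5.22) and 4.57-fold (4.16 to 5.04) below KO control.

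**Figure D3:**
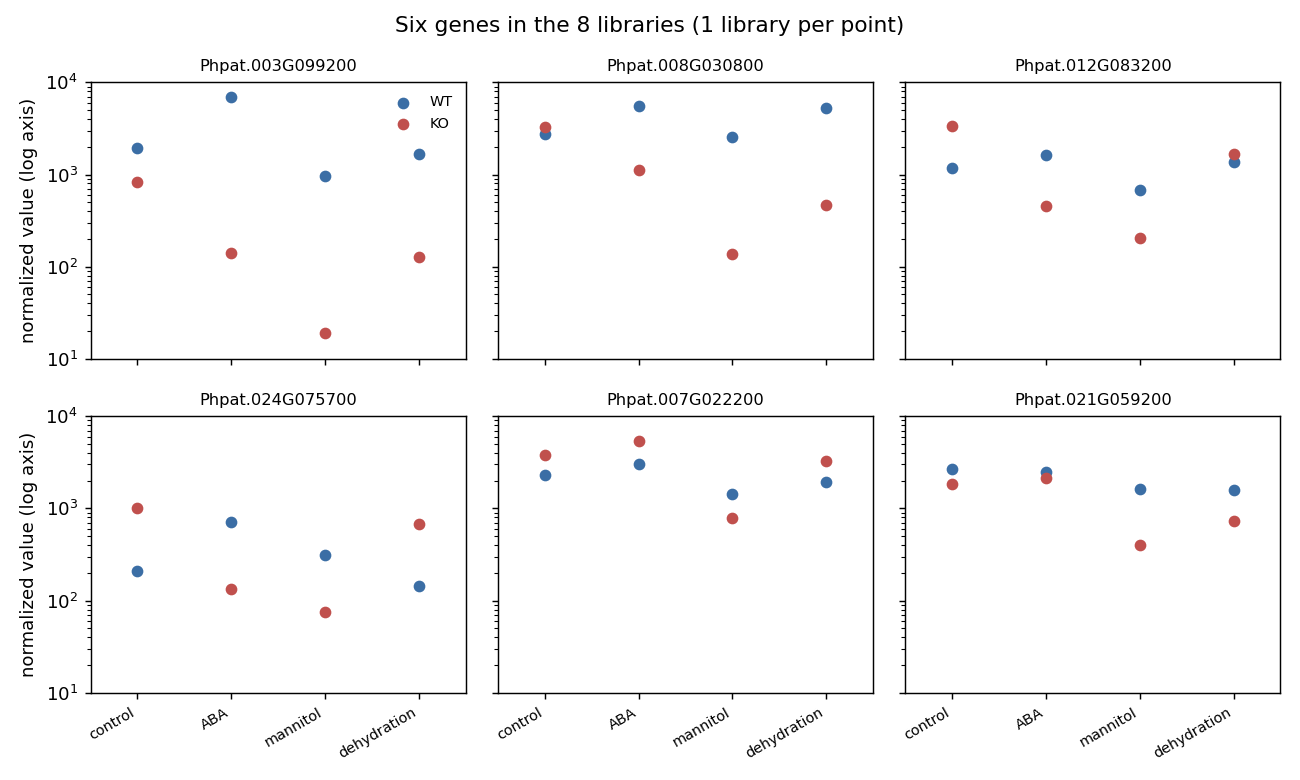
Normalized values (log axis) of the 2 genes with the lowest mannitol difference in KO and of the 2 lowest and 2 highest with ABA in KO. Each point is 1 library, WT in blue and KO in red. KO mannitol is the lowest point in all 6 panels, whereas KO ABA ranges from 135 in Phpat.024G075700 to 5420.1 in Phpat.007G022200.

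After dehydration the lowest KO difference was in Phpat.010G044300 (chromosome 10, 7610372 to 7615598, plus strand), at -3.08. It had 217, 47.2, 34.5 and 16.8 in KO control, ABA, mannitol and dehydration, and 54.0, 27.5, 69.9 and 24.6 in WT, so that KO control stood above the other 7 libraries. Phpat.010G019400 (chromosome 10, 3466661 to 3470440, plus strand) followed at -2.87, with 118, 15.1, 10.6 and 7.49 in KO and 396, 307, 525 and 356 in WT. Its 3 treated KO libraries held 16, 15 and 8 reads, so their order is not resolved at this depth.

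The highest after dehydration was Phpat.001G161700 (chromosome 1, 28139476 to 28140797, minus strand), at 0.74. It had 164, 24.6, 21.1 and 282 in KO control, ABA, mannitol and dehydration. In WT it had 6.75, 11.3, 10.6 and 3.69, which is 3 to 14 reads per library. Phpat.024G031400 (chromosome 24, 6327859 to 6333619, minus strand) came next at 0.23, with 1506, 558, 306 and 1769.7 in KO and 374, 494, 487 and 998 in WT.

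Neither KO ABA nor KO dehydration entered the rule, and the 65 genes lay on both sides of equality between them. It was below 0 for 32 and above 0 for 33, with a median of 0.02, where all genes had a median of 0.48. At least 2-fold lower under ABA than after dehydration were 12 genes (18.5%), against 2.18% of all genes, and 10 (15.4%) were at least 2-fold higher, against 17.4% of all genes. The direct contrast of these libraries has no replicate, and the even split was not counted under another scaling. Counts against KO control, a library of the rule, moved with the scaling. As deposited, 33 of the 65 genes were at least 2-fold below KO control with ABA and 34 after dehydration (4.97% and 10.8% of all genes). These counts were 44 and 27 with median-of-ratios scaling (7.13% and 6.76% of all genes). With equal totals they were 33 and 20 (4.95% and 4.80% of all genes). More of the 65 were then lower with ABA than after dehydration, while the shares of all genes moved as well.

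KO was also set beside WT in the control and in the mannitol libraries. The rule uses all of these libraries, so the counts are a description. In the untreated libraries KO was higher than WT for 52 of the 65 genes (80%), which is the share among genes that met the WT terms (79.5%), and for 43 under either other scaling. At least 2-fold higher in KO control were 25 genes (9.14% of all genes and 7.88% of those that met the WT terms), and 5 were at least 2-fold lower (3.22% of all genes). The count of 25 became 16 with median-of-ratios scaling and 10 with equal totals. A high KO control favours entry under the rule.

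With mannitol, KO was lower than WT for 63 of the 65 genes under all 3 scalings, with a median difference of -1.69 against 0.00 for all genes. It was at least 2-fold lower for 50 (76.9%), against 10.1% of all genes and 4.02% of those that met the WT terms. The rule asks for a low KO mannitol value and limits how low WT mannitol can be, so it favours this difference, and nothing is read from these shares. Of the 25 genes at least 2-fold higher in KO control, 15 were at least 2-fold lower than WT with mannitol and 10 lay within 2-fold. Of the 35 within 2-fold in the controls, 30 were 2-fold lower with mannitol and 5 were not. The 5 genes already at least 2-fold lower in KO control were lower with mannitol too, which the limits of the rule force. The same limits force KO below WT with mannitol for every gene within 2-fold in the controls.

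**Figure D4:**
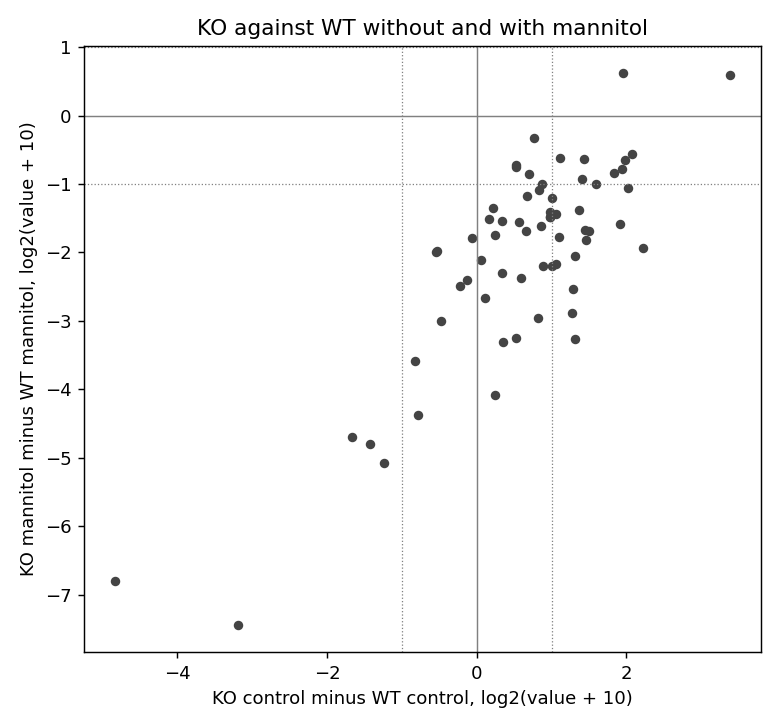
Each point is 1 of the 65 genes: the horizontal axis is KO control minus WT control and the vertical axis KO mannitol minus WT mannitol, both in log2(normalized value + 10). Dotted lines mark 2-fold. 52 points lie right of 0 and 63 lie below 0.

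The widest gaps between genotypes were in Phpat.001G121200 (chromosome 1, 21608510 to 21609769, plus strand) and Phpat.004G001900 (chromosome 4, 277652 to 280395, plus strand). Phpat.001G121200 had 4104, 13289, 3772 and 4492 in WT control, ABA, mannitol and dehydration, and 135, 54.8, 23.9 and 35.6 in KO. KO control was 30.5-fold lower than WT control (25.5 to 36.8), and with mannitol KO was 157-fold lower (113 to 228). All 4 KO values lay below all 4 WT values.

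Phpat.004G001900 had 2389, 5087, 2339.7 and 2020.4 in WT, and 252, 40.6, 3.52 and 29.9 in KO in the same order. The last value but one stands for 5 reads, and lay 71.7-fold below KO control (30.3 to 223). KO was 9.46-fold lower than WT in the controls (8.26 to 10.9) and 664-fold lower with mannitol (284 to 2047). These 2 genes, Phpat.003G099200, Phpat.010G019400 and Phpat.003G056300 (chromosome 3, 10751022 to 10754786, minus strand, named after its values were seen) were the 5 at least 2-fold lower in KO in all 4 conditions.

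In the opposite corner, Phpat.001G161700 and Phpat.007G035000 (chromosome 7, 4707872 to 4709416, plus strand) were the 2 genes higher in KO than in WT with mannitol. Phpat.007G035000 had 66.6, 30.7, 29.6 and 29.5 in WT control, ABA, mannitol and dehydration and 287, 200.3, 50.7 and 172 in KO. Its KO mannitol value thus stayed above the WT mannitol value, and its WT differences, from -0.91 to -0.95, lay just inside the limit, although its treated WT values were 2.17-fold to 2.25-fold lower than the WT control. Phpat.001G161700 was 24.3-fold higher in KO control than in WT control (11.5 to 61.6), and Phpat.024G075700 4.81-fold higher (4.15 to 5.61).

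One comparison could be tested without either control or either mannitol library: KO against WT over the ABA and dehydration libraries, 4 in all, fitted with limma as treatment plus genotype. The fit has 1 residual degree of freedom per gene, shared across genes, and its residual holds any genotype effect that differs between ABA and drying. At a limma adjusted p under 0.05, 25 of the 65 genes (38.5%) were lower in KO, against 10.2% of all genes, and 4 (6.15%) were higher, against 20.3%. WT ABA and WT dehydration are bounded by the rule, so genes that met the same WT terms are the nearer background: 4.95% of them were called lower and 12.9% higher. That background is not matched on KO control or KO mannitol. Its median WT ABA minus WT control was 0.31, against 0.66 for the 65. How far the choice of genes alone shapes these shares was not tested. The other 36 genes of the 65 were not called.

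The direction of calls over all genes depends on the scaling. Of all calls, 66.7% were higher in KO as deposited and 44.6% with median-of-ratios scaling. Under the latter the same 25 genes were called lower (12.8% of all genes) and 2 higher (10.3% of all genes). The quasi-likelihood test of edgeR, run on reads recovered from the values, called 26 lower, the same 25 among them (12.6% of all genes), and 2 higher (11.5% of all genes). Without the filter on low values limma called 0 genes of the whole table, with 7370 at an unadjusted p under 0.05, so the calls rest on that filter. Without the trend in limma's variance 20 of the 65 were called lower and 3 higher, beside 1805 lower and 3566 higher of all 19821 genes. A limma fit of all 8 libraries called 6 lower and 1 higher, beside 332 lower and 741 higher of all 19821 genes. It brings in the control and mannitol libraries of the rule. Keeping or losing a call in it is therefore no independent check.

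All 25 genes called lower were below WT in both conditions, which a call in this fit requires. With mannitol all 25 were lower in KO too, as were 63 of all 65, a difference that the rule favours. In the untreated libraries they were divided, with 12 lower and 13 higher in KO and a median difference of 0.05. The largest effects were -7.15 ± 0.33 log2 units (SE, limma adjusted p = 0.000193) in Phpat.001G121200 and -6.16 ± 0.33 (limma adjusted p = 0.000312) in Phpat.004G001900. Of the 2 genes with the lowest mannitol difference, Phpat.003G099200 was lower by -4.57 ± 0.47 (limma adjusted p = 0.00241) and Phpat.008G030800 by -2.89 ± 0.34 (limma adjusted p = 0.00381). In the fit of all 8 libraries the first 3 of these kept their call, and Phpat.008G030800 lost it (limma adjusted p = 0.0814). That fit takes in the libraries that chose the genes, so neither outcome is an independent check.

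The 4 genes called higher in KO were also all higher in KO control, as were 52 of the 65, with a median difference of 1.95 there. Phpat.007G035000 was higher by 2.29 ± 0.34 log2 units (limma adjusted p = 0.00769) and Phpat.007G022300 (chromosome 7, 3190727 to 3191197, minus strand) by 1.80 ± 0.26 (limma adjusted p = 0.00711). The other two, named here to complete the count, were Phpat.009G013700 (1.49 ± 0.34, limma adjusted p = 0.0249) and Phpat.002G071200 (0.96 ± 0.25, limma adjusted p = 0.0364). Each was higher in 2 of 2 conditions, which a call in this fit requires as well. In the fit of all 8 libraries, which is no independent check, Phpat.007G035000 kept its call and the others lost theirs (limma adjusted p = 0.122 for Phpat.007G022300). Phpat.009G013700 and Phpat.002G071200 also lost theirs with edgeR and with median-of-ratios scaling, and Phpat.002G071200 without the trend. Phpat.012G083200 (-0.76 ± 0.50, limma adjusted p = 0.28) and Phpat.024G075700 (-0.08 ± 0.97, limma adjusted p = 0.96) were not called, the latter with KO lower under ABA and higher after dehydration.

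**Figure D5:**
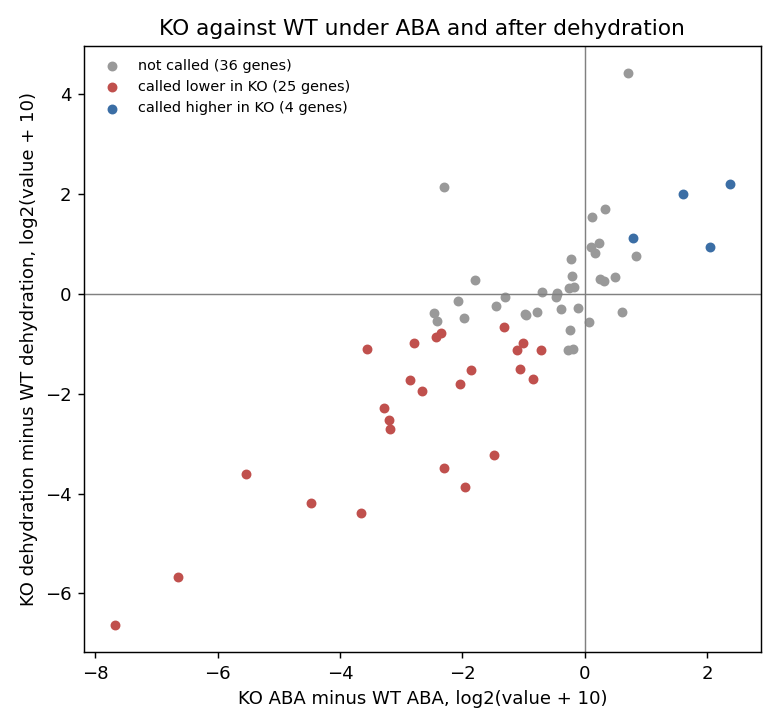
Each point is 1 of the 65 genes: the horizontal axis is KO minus WT under ABA and the vertical axis KO minus WT after dehydration, both in log2(normalized value + 10). Colours give the limma call at an adjusted p under 0.05: 25 genes lower in KO, 4 higher and 36 not called. All 25 lower genes lie below 0 on both axes, as a call in this fit requires.

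Beside the 65 genes, the other 527 genes that were at least 4-fold lower with mannitol in KO had 110 (20.9%) called lower and 97 (18.4%) called higher in the same fit. Their medians in KO were -1.59 with ABA and -1.61 after dehydration, and the median KO control minus WT control was 0.08 against 0.83 for the 65. These sets were separated by their WT values, and the difference between them was not tested.

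The 2 genes with the highest mean value over the 8 libraries were Phpat.002G089600 (chromosome 2, 13620632 to 13624125, plus strand) and Phpat.002G102900 (chromosome 2, 16527978 to 16532712, plus strand). Phpat.002G089600 had 6369.6, 10063, 8588 and 8794 in WT control, ABA, mannitol and dehydration and 12529, 2566, 3069.8 and 6318 in KO. Its counting interval is narrow, 4.08-fold lower with mannitol in KO (3.94 to 4.23), and its KO value was lower with ABA than with mannitol. Phpat.002G102900 had 3241, 11693, 2361 and 6284 in WT and 6740.3, 984, 864 and 2912 in KO. It was called lower in KO by -2.33 ± 0.57 (limma adjusted p = 0.0306). The call was lost in the fit of all 8 libraries (limma adjusted p = 0.231), which is no independent check.

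Divided by the length of the gene on the genome, the mean value of the 65 genes had a median of 318 per kb, against 119 for all genes kept. The rule favours this, since a difference of -2 cannot be reached from a KO control value near the added 10. Without division by length, the median mean value was 812 for the 65, 647 for the other 527 genes 4-fold lower with mannitol in KO, and 419 for all genes kept. The gene span had a median of 2813 bases (471 to 7186), against 3089. An older V1.6 gene model existed for 56 of the 65 (86.2%), against 77.9% of all genes, and 35 lay on the plus strand (53.8%, against 51.1%). The genes were spread over 22 chromosomes, with 7 each on chromosomes 1 and 3 and 6 on chromosome 2.

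Only 1 pair of the 65 genes lay within 20 kb of each other. Phpat.007G022200 and Phpat.007G022300 are next to each other and converge, with 93 bases between their ends. Both were lower with mannitol in KO, by differences of -2.27 and -2.67, but their WT levels differed in shape: Phpat.007G022300 stayed between 300.1 and 339 in all 4 WT libraries, and had 1323, 1049, 199 and 1248 in KO control, ABA, mannitol and dehydration. KO control was above WT control by 2.07 for Phpat.007G022300 and by 0.70 for Phpat.007G022200.

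The next closest pair, Phpat.002G089600 and Phpat.002G089900 (chromosome 2, 13675707 to 13679379, minus strand), was 51.6 kb apart with 2 genes between. Phpat.002G089900 had 1930.0, 4155, 1010.3 and 1794 in WT and 3275, 2549, 807 and 1835 in KO. Its WT mannitol difference of -0.93 was again near the limit, while that of Phpat.002G089600 was 0.43.

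No gene of the 65 shared its counts in all 8 libraries with another gene, within 5% or 3 reads. Of the 65, 4 overlap another gene model (6.15%, against 8.71% of all genes), and whether counting used strand is not stated in the labels, so their values are uncertain. Phpat.003G037400 lies wholly inside Phpat.003G037300 on the same strand, which was also lower with mannitol in KO, by a difference of -1.95. Phpat.003G032200 overlaps Phpat.003G032300 on the opposite strand, a gene of only 50 reads in KO control that was lower by -1.77. The other two, Phpat.003G091100 and Phpat.018G023200, overlap genes with differences of -0.51 and -0.64.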

How the data were processed

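The authors deposited a normalized abundance signal per gene and library, and V3.0 gene models taken from Phytozome v10, per the file headers and contents. Tools in the submitters' processing notes are bedtools, FastQC, SAMtools, TopHat2 and Trimmomatic, with the normalization not given in the sources used here. In each library 100% of the deposited signal values were whole multiples of 1 step within 0.01 reads. Dividing by that step gave reads, whose fold intervals are exact, conditional on the sum, and cover counting error only.

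Differences used log2(value + 10) and a mean of at least 20 (19821 of 26610 genes). The 65 genes and all comparisons and lists were chosen with earlier results of these data known. limma 3.58.1 (trend, two-sided, Benjamini-Hochberg over 19821 genes) fitted WT and KO under ABA and dehydration as treatment plus genotype. edgeR 4.0.16 on the recovered reads called 2278 genes higher and 2500 lower. Both fits and the recovery of reads were tested on simulated data. The data simulated for the fits held no treatment effect and no genotype difference that varied with treatment. They therefore cannot show how many of the calls here are right. With 1 library per group, no p-value measures a spread between replicate libraries. In the fits of 4 libraries the residual is how far the genotype difference under ABA departs from that after dehydration, with its spread shared across genes. Named genes were the 2 highest and 2 lowest in each comparison, the 2 on either side of the threshold, the 2 with the highest mean and the 2 closest pairs. Other pseudocounts, scalings, filters and limits were tried. No sequence is printed, since no sequence table was used here.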

Additional observations from a re-analysis of the deposited data

Results flagged for a closer look

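Among the named genes, 6 were at least 2-fold higher with ABA in WT and at least 2-fold lower with ABA in KO. In KO the log2 difference from the control was -1.16 in Phpat.001G121200, -2.76 in Phpat.002G102900, -2.47 in Phpat.003G099200, -2.37 in Phpat.004G001900, -1.53 in Phpat.008G030800 and -2.82 in Phpat.024G075700. The WT differences were 1.69, 1.85, 1.83, 1.09, 1.02 and 1.70 in the same order. Each rests on 1 library per group, so the difference between the genotypes was not tested, and the genes were named for extreme values, which favours such opposites. Of all 65 genes 13 showed this pattern with ABA, 2 with mannitol and 2 with dehydration. Over all 19821 genes the counts were 167, 161 and 112. The rises with ABA in WT also depend on the scaling. WT ABA had the largest factor, 1.62, and a normalized total of 4.84e+07, against 0.965 and 2.52e+07 for WT control. Equal totals would lower every WT ABA difference, and the pattern was not counted under another scaling.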

How the results depend on the processing

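No paired analysis was possible because each group is 1 library of pooled RNA. The number of genes meeting the rule stayed between 54 and 88 with another pseudocount, filter or median-of-ratios scaling, which kept 46 of the 65. It was 28 with equal totals per library (26 of the 65), 18 with a KO threshold of -3, 197 with -1.5 and 9 with WT limits of -0.5 and 0.5. For the genes then chosen, the median KO ABA minus KO control was -1.48 with median-of-ratios scaling, -1.61 with equal totals, -1.54 at -3 and -0.87 at -1.5. The median KO dehydration minus KO control was -0.63 with median-of-ratios scaling and -1.37 with narrow WT limits. KO control minus WT control had a median of 0.24 with equal totals. KO mannitol minus WT mannitol was -2.14 with equal totals, -2.47 at -3, -1.06 at -1.5 and -1.17 with narrow WT limits. At least 2-fold lower with ABA in KO were 71.2% with median-of-ratios scaling, 64.3% with equal totals and 66.7% at -3. After dehydration these were 39.4%, 35.7% and 66.7%, with 37.1% at -1.5. Shares over all genes were 7.13%, 4.95% and 4.97% with ABA in the same order. After dehydration they were 6.76%, 4.80% and 10.8%, with 10.8% at -1.5. The thresholds act by construction, and why the scalings differ was not tested.

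In the test of KO against WT, 4030 genes of the whole table were called higher, beside 2278 with edgeR, 2035 with median-of-ratios scaling and 741 in a fit of all 8 libraries, where 332 were lower. Of the 65 genes, 2 were called higher with edgeR and 2 with median-of-ratios scaling, and the fit of all 8 libraries called 1 higher and 6 lower. Differences below 0 numbered 48 of the 65, 53 with edgeR, 53 with median-of-ratios scaling and 51 with all 8 libraries, so genes not named changed sign too. Without the filter 0 of all genes and 0 of the 65 were called in either direction (7370 of all genes at an unadjusted p under 0.05). Of the 19 named genes of the 65, 3 changed sign, none of them called: Phpat.002G052000 to -0.038 (edgeR), -0.059 (median-of-ratios) and -0.0048 (all 8 libraries), Phpat.010G044300 to -0.17 and -0.16 (edgeR, median-of-ratios), and Phpat.024G075700 to 0.034 (all 8 libraries). Among the named genes, 9 lost their call without the filter and 4 in the fit of all 8 libraries.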
